A study of Homo sapiens with 5 samples.

Results

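The genes encoding the NURF chromatin remodelling complex and the other complexes built on the ISWI ATPases were examined in cells in which the NURF subunit BPTF had been silenced. The 10 genes are BPTF, SMARCA1, SMARCA5, RBBP4, RBBP7, HMGXB4, BAZ1A, BAZ1B, BAZ2A and CECR2, chosen by name as subunits of these complexes, and all 10 were found among the 31029 genes listed for every library. The libraries are 2 replicates of 501Mel shBPTF and 3 replicates of Hermes 3A shBPTF. 501Mel is a human melanoma cell line, and Hermes 3A is an immortalised line of untransformed human melanocytes. Both were infected with lentivirus carrying an shRNA against BPTF, kept under puromycin selection and collected as cultures, so that every library carries a BPTF shRNA and none is a control. The study's methods name more than 1 BPTF shRNA construct in the pLKO vector, and the labels do not say which was used. Libraries of shControl cells were not analysed here, and how far BPTF fell below its level without the shRNA cannot be read from these values. The only comparison is that of the melanoma line with the melanocyte line under shBPTF. The 2 lines were grown in different media, as Hermes 3A cells also received TPA, cholera toxin, stem cell factor and endothelin-1, and the effects of line, medium and transformation cannot be told apart.

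ISWI complexes use the energy of ATP to slide nucleosomes along DNA. Their motor is one of the paralogous ATPases SMARCA1 (SNF2L) and SMARCA5 (SNF2H), and a large partner subunit sends the motor to different tasks. BPTF gives NURF its identity and docks the complex on nucleosomes that carry the marks of active genes. RBBP4 and RBBP7 are paralogous WD40 proteins that bind histones and are shared with many other chromatin complexes. BAZ1A forms ACF and CHRAC, which space nucleosomes, BAZ1B forms WICH, which acts at replication sites, BAZ2A forms NoRC, which silences ribosomal DNA, and CECR2 forms CERF. In the melanocyte lineage, NURF is known as a partner of the transcription factor MITF.

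On GRCh38 (GENCODE 29), the NURF genes are BPTF (ENSG00000171634, chr17:67825524-67984378, + strand) and HMGXB4 (ENSG00000100281, chr22:35257452-35295807, + strand). The ATPase genes are SMARCA1 (ENSG00000102038, chrX:129446501-129523500, - strand) and SMARCA5 (ENSG00000153147, chr4:143513463-143557486, + strand), and the histone-binding genes are RBBP4 (ENSG00000162521, chr1:32651142-32686211, + strand) and RBBP7 (ENSG00000102054, chrX:16839283-16870414, - strand). The remaining partners are BAZ1A (ENSG00000198604, chr14:34752731-34875647, - strand), BAZ1B (ENSG00000009954, chr7:73440398-73522278, - strand), BAZ2A (ENSG00000076108, chr12:56595596-56636816, - strand) and CECR2 (ENSG00000099954, chr22:17359949-17558149, + strand). The deposited counts were made on hg19 and are given per gene.

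The total counts were between 30073071 and 43032311 per library. Of 17975 genes tested with edgeR's quasi-likelihood test, 48.2% differed between the lines at an adjusted p under 0.05 (24.2% higher and 24% lower in 501Mel), so that a called difference between these lines is common. The melanocyte lineage genes MITF, SOX10, PAX3, TYR, TYRP1, PMEL and MLANA were found at 65.9 CPM (counts relative to the library total, scaled with TMM factors) or more in every library. DCT had 1034 and 1285 CPM in 501Mel and between 7.85 and 13.3 CPM in Hermes 3A. Of these 8 genes, 1 was called higher in 501Mel (DCT) and 5 lower, led by PMEL (log2 -1.39) and MLANA (log2 -1.22), while MITF had 680 and 844 CPM against 663 to 688 CPM and was not called (edgeR adjusted p = 0.429). Among markers of other cell types, the immune genes PTPRC and CD68 had at most 2 counts and between 1303 and 4097 counts in 501Mel, the latter against 5 to 11 in Hermes 3A. The summed level of the keratinocyte list, all of it KRT10, was between 31.6 and 50.5 CPM, that of the fibroblast list at most 15.7 CPM and that of the endothelial list at most 0.603 CPM. KRT10 (log2 -0.49, edgeR adjusted p = 0.0357) and the endothelial gene VWF (log2 -1.73, edgeR adjusted p = 0.0294, from 5 and 6 counts in 501Mel and 13 to 21 in Hermes 3A) were called lower in 501Mel, and CD68 was called higher (log2 8.22). Of the fibroblast genes, COL1A1 (log2 2.35, edgeR adjusted p = 0.0506), COL3A1 and LUM were not called, and 1 of them had an unadjusted p under 0.05. The 8 proliferation genes of a fixed list summed to 1226 and 1550 CPM in 501Mel and to 221 to 328 CPM in Hermes 3A. Each of the 8 was called higher in 501Mel. PCNA gave 150 to 180 CPM of the Hermes 3A sums. The coefficient of variation between Hermes 3A replicates ran from 9.33% for PCNA to 87.3% for CDK1 (32.9, 4.92 and 12.1 CPM). The difference between the lines in these genes runs beside the results below, and its part in them was not tested. The counts are relative to the total of each library, and fewer transcribing cells cannot be told apart from less RNA per cell.

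Most of the NURF and ISWI genes were higher in the melanoma line. With edgeR, 7 of the 10 were called higher in 501Mel (background 24.2%), namely SMARCA5, RBBP4, RBBP7, HMGXB4, BAZ1A, BAZ1B and CECR2. SMARCA1 alone was called lower (background 24%). BPTF and BAZ2A did not pass the threshold. In total 8 of 10 were called, beside 48.2% of all genes. The log2 fold changes ran from -0.74 for SMARCA1 to 2.17 for CECR2 with a median of 0.83, beside a median of 0.02 over all genes tested. The CPM ranges of the 2 lines did not overlap for any of the 10 genes, with 9 higher and 1 lower in 501Mel, while ranges without overlap were found for 69.6% of all genes tested (35.7% higher and 34% lower). Calls for RBBP4, RBBP7, HMGXB4 and BAZ1B were kept in all 11 alternative fits. Without 501Mel replicate 1, SMARCA5, BAZ1A, CECR2 and SMARCA1 lost their calls. Their log2 fold changes were then 0.60, 0.25, 0.94 and -0.40.

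**Figure D1:**
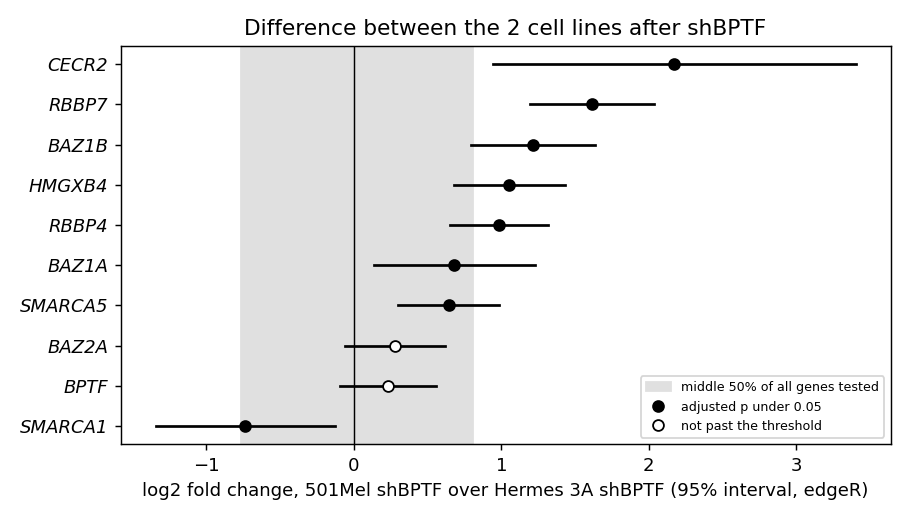
Log2 fold change of each gene between 501Mel shBPTF and Hermes 3A shBPTF cells (x axis), with the 95% interval from edgeR as a line. Filled points passed an adjusted p of 0.05, and the grey band holds the middle 50% of all genes tested, from -0.76 to 0.81. CECR2, RBBP7, BAZ1B, HMGXB4 and RBBP4 lie to the right of the band and SMARCA1 alone lies left of 0.

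BPTF, the silenced gene, had 63.7 and 57.1 CPM in the 501Mel replicates and 48.7, 50.9 and 54.9 CPM in the Hermes 3A replicates. Both 501Mel libraries were above the 3 Hermes 3A libraries, by a small margin. The 1.17-fold difference (log2 0.23, standard error 0.14, 95% interval -0.10 to 0.56) did not pass the test (edgeR adjusted p = 0.208, and between 0.125 and 0.561 in the 11 alternative fits). The 2 lines were thus not shown to differ in BPTF, and the interval does not show that they were equal. BPTF varied little, with a coefficient of variation between replicates of 7.73% in 501Mel and 6.12% in Hermes 3A. HMGXB4 (HMG2L1), an HMG-box protein found with NURF, had 89.2 and 67.9 CPM in 501Mel and 39.1, 36.1 and 38.3 CPM in Hermes 3A. Its groups were well separated, with a 2.08-fold higher level in 501Mel (log2 1.05, standard error 0.16, edgeR adjusted p = 0.00187). Thus, of these 2 NURF subunit genes, the RNA of HMGXB4 was called different between the lines and that of BPTF was not.

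**Figure D2:**
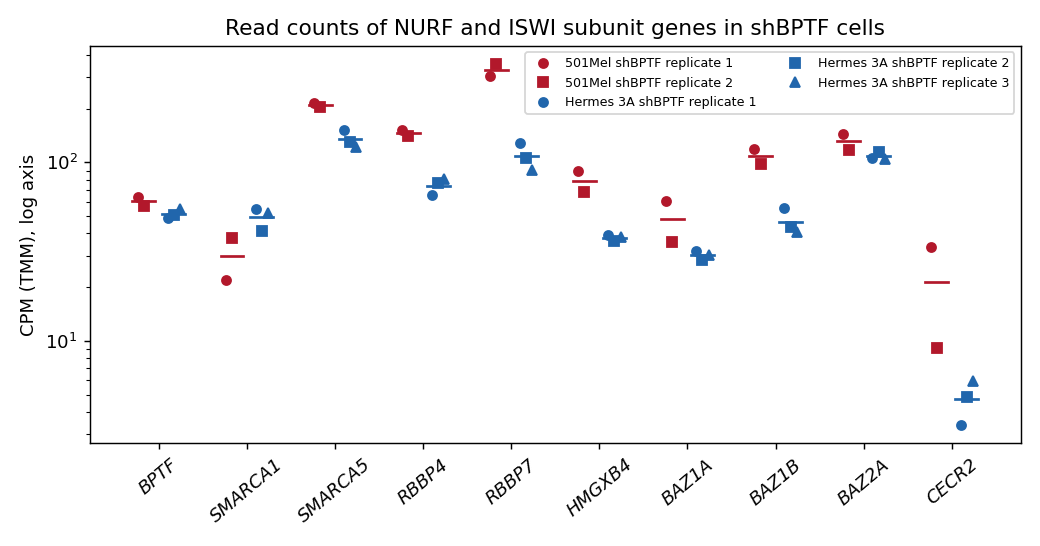
CPM of each gene (log axis) in every shBPTF library, with 501Mel in red, Hermes 3A in blue, marker shape for the replicate and a bar at the mean of each line. BPTF lies between 48.7 and 63.7 CPM in all libraries, whereas CECR2 spreads from 3.38 to 33.6 CPM.

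The paralogous ATPases had fold changes of opposite sign, that of SMARCA1 with a marginal call. SMARCA5, the ATPase of most ISWI complexes, had 216 and 204 CPM in 501Mel and 151, 129 and 123 CPM in Hermes 3A. All 501Mel values were above those of Hermes 3A, and the level was 1.56-fold higher (log2 0.64, standard error 0.14, edgeR adjusted p = 0.00938). The call was lost at the margin without 501Mel replicate 1 (adjusted p = 0.0524) and without Hermes 3A replicates 2 (0.0601) or 3 (0.0614), with a range of 0.00242 to 0.0614 over the alternatives. SMARCA1, the ATPase first described in NURF and rich in neural tissue, had 21.9 and 37.6 CPM in 501Mel and 55.1, 41.5 and 52.2 CPM in Hermes 3A. The 501Mel values were the lowest, but they differed 1.71-fold from each other, a larger replicate difference than in 86.3% of all genes tested. Its 1.67-fold higher level in Hermes 3A (log2 501Mel minus Hermes 3A -0.74, standard error 0.26) passed barely (edgeR adjusted p = 0.0495), and 6 of 11 alternative fits did not call it (adjusted p from 0.0126 to 0.225). Without 501Mel replicate 1 the log2 difference was -0.40, and without 501Mel replicate 2 it was -1.19. The fits without Hermes 3A replicate 1 (adjusted p = 0.0890) or 3 (0.106) did not call it either.

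Since both ATPases are counted in the same library, their ratio does not depend on the scaling between libraries. Per kb of the main transcript, SMARCA5 exceeded SMARCA1 4.43-fold and 2.44-fold in the 501Mel replicates. In Hermes 3A the excess was 1.24-, 1.402- and 1.06-fold. SMARCA1 thus made up 18.4% and 29.1% of the RNA of the ATPase pair in 501Mel. In Hermes 3A its RNA share was 44.7%, 41.6% and 48.6%, without overlap between the lines. The paper reports that BPTF silencing strongly lowered the protein of both ATPases in the melanoma line, while their gene expression was not lowered. The RNA shares therefore do not give the protein make-up of the pair, which was not measured here. The log2 SMARCA1/SMARCA5 ratio was -1.72 ± 0.61 (SD, n = 2) in 501Mel and -0.29 ± 0.20 (SD, n = 3) in Hermes 3A, a difference of -1.43. The exact two-sided permutation test gave p = 0.20, the smallest value that 2 against 3 libraries allow. The difference does not depend on the gene length chosen, since the same length was used for both lines, whereas the ratio itself does. Gene models that differ between the lines would not cancel in it. SMARCA5 overlaps the antisense genes SMARCA5-AS1 and AC139713.1, and 13.2% of the 50-base stretches of its transcript also occur in transcripts of other genes, against 0% for SMARCA1. The summed level of both ATPases per kb of the main transcript, relative to BPTF, was 6.55 ± 0.887 (SD, n = 2) in 501Mel and 6.80 ± 1.04 (SD, n = 3) in Hermes 3A. With this length the lines differed by less than the replicate spread. The sum depends on the length used, and other lengths were not tried for it. It was not a planned comparison and had no test.

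**Figure D3:**
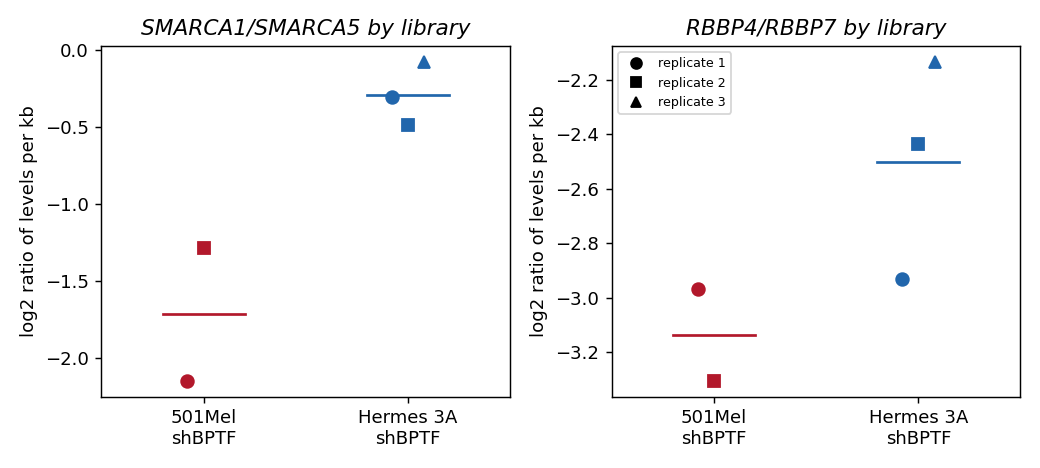
Log2 ratio of the levels per kb for SMARCA1/SMARCA5 (left) and RBBP4/RBBP7 (right) in each library, with a bar at the mean of each line; the 2 panels have different y axes. The SMARCA1/SMARCA5 ratio lies between -2.15 and -1.28 in 501Mel and between -0.49 and -0.08 in Hermes 3A, and the RBBP4/RBBP7 ratios of the lines are nearly in contact at -2.97 and -2.93.

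The histone-binding paralogues were both higher in the melanoma line. RBBP7 (RbAp46) had 307 and 356 CPM in 501Mel and 128, 106 and 90.5 CPM in Hermes 3A. It had the largest fold change of the genes whose call held in every fit, 3.06-fold (log2 1.61, standard error 0.18, edgeR adjusted p = 0.000508). RBBP4 (RbAp48) had 153 and 141 CPM in 501Mel and 65.5, 76.5 and 80.4 CPM in Hermes 3A, a 1.98-fold difference (log2 0.99, standard error 0.14, edgeR adjusted p = 0.00155). Both genes were thus well separated between the lines. Per kb of the main transcript, RBBP7 exceeded RBBP4 7.83- and 9.87-fold in 501Mel and 7.62-, 5.42- and 4.39-fold in Hermes 3A. The log2 RBBP4/RBBP7 ratio was -3.14 ± 0.24 (SD, n = 2) in 501Mel and -2.50 ± 0.40 (SD, n = 3) in Hermes 3A. The difference of -0.64 was at the smallest exact two-sided permutation p of 0.20, and the nearest libraries of the lines lay close together. The ratio itself depended on the length used, and with the union of all exons it was -1.53 in 501Mel and -0.89 in Hermes 3A. RBBP7 has exons that overlap TXLNG on the other strand. The summed level of RBBP4 and RBBP7 per kb of the main transcript, relative to BPTF, was 34.1 ± 5.64 (SD, n = 2) in 501Mel and 13.8 ± 2.63 (SD, n = 3) in Hermes 3A, with ranges of 30.1 to 38.1 and 11.2 to 16.5 that did not overlap. This sum was computed with the main transcript length only, was not a planned comparison and was not tested. For RBBP4, 25.8% of the 50-base stretches occur elsewhere, mainly in SYNC, which overlaps it on the other strand, and in RBBP4 pseudogenes, against 0% for RBBP7.

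The sequences before RBBP4, RBBP7 and SMARCA1 are shown because the RBBP genes were higher and SMARCA1 lower in 501Mel. They come from windows of 250 bases before a RefSeq transcript start on GRCh38.p14, read 5′ to 3′ along the gene, and only the bases before the GENCODE 29 gene start are printed. Capitals mark matches, on either strand, to CACGTG and CATGTG (E-boxes, the type of site MITF binds), CCAAT, TTTGGCGC or TTTCCCGC (E2F type) and TATAAA.
RBBP4, + strand, chr1:32650958-32651141: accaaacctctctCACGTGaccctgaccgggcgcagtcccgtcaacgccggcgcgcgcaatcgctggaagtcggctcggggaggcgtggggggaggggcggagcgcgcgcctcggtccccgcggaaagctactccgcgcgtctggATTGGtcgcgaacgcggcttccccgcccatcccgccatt
RBBP7, - strand, chrX:16870415-16870612: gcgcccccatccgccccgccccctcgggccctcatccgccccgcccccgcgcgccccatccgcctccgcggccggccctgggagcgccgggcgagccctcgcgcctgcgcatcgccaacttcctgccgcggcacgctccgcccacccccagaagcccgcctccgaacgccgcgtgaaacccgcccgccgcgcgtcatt
SMARCA1, - strand, chrX:129523501-129523740: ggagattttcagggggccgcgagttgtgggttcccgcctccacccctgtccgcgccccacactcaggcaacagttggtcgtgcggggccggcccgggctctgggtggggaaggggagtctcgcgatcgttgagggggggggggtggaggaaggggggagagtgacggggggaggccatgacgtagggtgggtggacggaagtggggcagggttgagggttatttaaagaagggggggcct
The RBBP4 window held CACGTG, with its first base at position -237 from the RefSeq start, and CCAAT boxes at -105 and -54, the last of them inside the GENCODE gene, which takes up 66 bases of the window. The RBBP7 window held 1 CCAAT box at -55, which runs across the GENCODE start and is therefore not printed. RBBP4 and RBBP7 have a second RefSeq window each, mostly or wholly inside the gene, with 1 CCAAT box at -202 and at -87 and no CACGTG. The RBBP4 windows overlap, and the box at -202 is the same site as that at -54 of the first window. The SMARCA1 window held none of these letters. The SMARCA5 window lies inside the GENCODE gene for 239 of its 250 bases, and held no match either. Of the other genes called higher in 501Mel, the BAZ1B window held CCAAT boxes at -74 and -39. The HMGXB4 and CECR2 windows held no match. Matches were thus not found for every gene called higher in 501Mel that had a window. Over all 35116 windows, CACGTG was found in 6.34%, CATGTG in 9.42%, CCAAT in 32%, the E2F type in 1.93% and TATAAA in 10.7%, and the matches describe the sequence only. RefSeq windows were matched for 8 of the 10 genes. BPTF and BAZ1A, the latter called higher in 501Mel, had no window and were not searched.

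Among the partner subunits that define the other ISWI complexes, BAZ1B and CECR2 had the largest differences. BAZ1B, the WICH subunit, had 119 and 97.5 CPM in 501Mel and 55.4, 43.5 and 40.9 CPM in Hermes 3A. The groups were far apart, with a 2.32-fold higher level in 501Mel (log2 1.22, standard error 0.18, edgeR adjusted p = 0.00162). BAZ1A, the ACF and CHRAC subunit, had 60.8 and 35.7 CPM in 501Mel and 31.9, 28.2 and 30.1 CPM in Hermes 3A. The second 501Mel replicate was just above Hermes 3A and the first well above it. The 1.60-fold difference (log2 0.68, standard error 0.23) was called in the full fit (edgeR adjusted p = 0.0445). It was not called in 5 of 11 alternatives (adjusted p from 0.00869 to 0.378), among them the fits without 501Mel replicate 1 (log2 0.25, adjusted p = 0.378) and without Hermes 3A replicate 1 (0.0605), 2 (0.140) or 3 (0.123). BAZ2A, the NoRC subunit, had 145 and 117 CPM in 501Mel and 105, 114 and 105 CPM in Hermes 3A, and its 1.21-fold difference did not pass (log2 0.28, 95% interval -0.06 to 0.62, edgeR adjusted p = 0.148).

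CECR2, the CERF subunit with known roles in neural tube closure and the germ line, had 33.6 and 9.08 CPM in 501Mel, from 1492 and 348 counts. In Hermes 3A it had 3.38, 4.87 and 5.97 CPM, from 132, 202 and 177 counts. It was the lowest of the 10 genes in every Hermes 3A library, and the 501Mel replicates differed 3.67-fold, more than in 98% of all genes tested. The 4.51-fold higher level in 501Mel was called (log2 2.17, standard error 0.52, 95% interval 0.94 to 3.40, edgeR adjusted p = 0.0123, from 0.000230 to 0.123 over the alternatives). Without 501Mel replicate 1 the log2 difference was 0.94 and not called (adjusted p = 0.123).

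Put per kb of the main transcript, the RNA of the 5 partner subunits BPTF, BAZ1A, BAZ1B, BAZ2A and CECR2 was shared out differently in the lines. Protein was not measured here. BAZ1B made up 35.9% ± 2.86 (SD, n = 2) of their sum in 501Mel and 24.96% ± 3.41 (SD, n = 3) in Hermes 3A. BAZ2A made up 30.8% ± 2.21 in 501Mel and 41.1% ± 2.36 in Hermes 3A. BPTF made up 9.81% and 12.02% in the 501Mel replicates and 13.7%, 14.9% and 16.4% in the Hermes 3A replicates, without overlap. BAZ1A made up 15.9% ± 2.43 and 16.4% ± 0.785. CECR2 made up 9.44% and 3.49% in the 501Mel replicates and 1.74% to 3.25% in the Hermes 3A replicates, with the widest replicate spread in 501Mel. With this length the highest partner was BAZ1B in both 501Mel libraries and BAZ2A in the 3 Hermes 3A libraries. This switch depends on the length used, since with the median transcript length BAZ2A was the highest in both lines (58.9% in 501Mel and 64.3% in Hermes 3A), and BAZ1B made up 6.11% and 3.48%. Shares sum to the whole, so that a rise of one lowers the others. These shares were computed after the levels had been seen and were not tested.

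**Figure D4:**
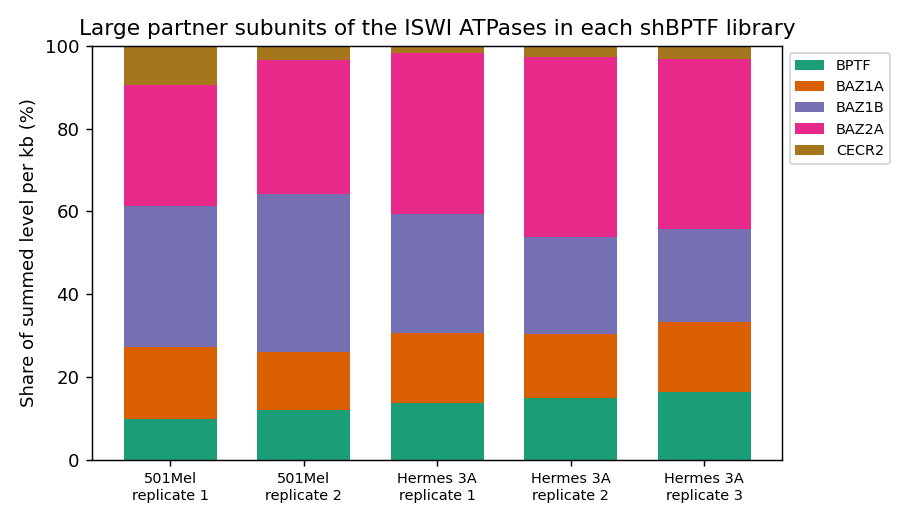
Share of each large partner subunit in the summed level per kb of the 5 genes (y axis, percent) in each shBPTF library (bars). With the main transcript length, BAZ1B is the largest part in both 501Mel libraries, with 33.9% and 38.0%, and BAZ2A in the Hermes 3A libraries, with 38.8% to 43.5%.

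Ordered by CPM per kb of the main transcript, RBBP7 was the highest gene in both lines, with 163 ± 17.2 (SD, n = 2) in 501Mel and 53.2 ± 9.24 (SD, n = 3) in Hermes 3A. SMARCA5 followed with 26.5 ± 1.08 and 16.97 ± 1.90. In 501Mel the next places were taken by HMGXB4 (19.4), RBBP4 (18.5), BAZ1B (17.8) and BAZ2A (15.2), each overlapping its neighbour. SMARCA1 (8.35) and BAZ1A (8.03) overlapped each other, as did BPTF (5.35) and CECR2 (3.45), the lowest. In Hermes 3A, SMARCA1 (13.9) stood in the third place and overlapped BAZ2A (12.6), followed by HMGXB4 (9.35), RBBP4 (9.33) and BAZ1B (7.64), which overlapped in turn. BAZ1A (5.00) and BPTF (4.56) also overlapped there, and CECR2 (0.767) lay below all others. BPTF was thus at the ninth place in each line under the shRNA. The order rests on the annotated length. With the union of all exons SMARCA5 took the first place in Hermes 3A, while SMARCA1 kept the third and BPTF the ninth. With the median transcript length SMARCA5 was first in both lines, RBBP7 came to rank 2 in 501Mel and 3 in Hermes 3A, SMARCA1 to rank 9 and 8, and BPTF to rank 7 in both.

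Other genes that work with these subunits were taken from fixed lists. Of 6 further ISWI partners, 2 were called higher in 501Mel and 0 lower with edgeR, beside 24.2% and 24% of all genes tested, a share too near the background to set the list apart. POLE3, a histone-fold subunit of CHRAC, had 129 and 112 CPM in 501Mel and 39.8, 36.4 and 34.7 CPM in Hermes 3A (log2 1.70, standard error 0.14, edgeR adjusted p = 0.000153). Its CHRAC partner CHRAC1 had 39.3 and 36.9 CPM in 501Mel and 24.2, 21.2 and 19.98 CPM in Hermes 3A (log2 0.81, standard error 0.17, edgeR adjusted p = 0.00640). Both histone-fold genes were thus separated between the lines. RSF1 (log2 0.04), BAZ2B (-0.20), LUZP1 (-0.29) and C17orf49 (-0.70, with 8 to 27 counts and exons that overlap the read-through gene RNASEK-C17orf49) did not pass. The median of the 6 was -0.08, beside 0.02 for all genes.

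RBBP4 and RBBP7 also serve CAF-1, NuRD, PRC2, SIN3 and DREAM/MuvB. Of 21 measured genes of these complexes, 10 were called higher in 501Mel (24.2% of all genes), 3 lower (24%) and 8 not, with a median log2 fold change of 0.43. Without either 501Mel replicate, or without Hermes 3A replicate 2 or 3, 1 gene was called lower, and the number called higher was between 7 and 8 in the 5 fits without 1 library. The largest were LIN9 of MuvB (log2 2.41, edgeR adjusted p = 0.000431) and the CAF-1 subunit CHAF1A (log2 2.38, edgeR adjusted p = 0.000598), which loads histones behind the replication fork. Its partner CHAF1B (log2 2.28) and the PRC2 methyltransferase EZH2 (log2 2.11) were close. The 2 largest on the other side were MBD2 of NuRD (log2 -1.07, edgeR adjusted p = 0.00231) and SAP30 of SIN3 (log2 -0.59, edgeR adjusted p = 0.0427). CHAF1A, CHAF1B, CHD4, MBD3, POLE3, BAZ2B, LUZP1 and RSF1 have exons that overlap other genes, and their counts are uncertain to that extent. The same holds for CD68, SOX10, TYRP1, PMEL and KRT10. Among the NURF and ISWI genes it also holds for BPTF, BAZ1A and BAZ2A, besides SMARCA5, RBBP4 and RBBP7. The NuRD ATPase CHD4 was called 1.58-fold higher (edgeR adjusted p = 0.0456), with 351 and 208 CPM in 501Mel and 164 to 194 CPM in Hermes 3A, and MBD3 had 99.9 and 105 CPM against 98.8 to 104 CPM. The genes of NuRD thus held calls in both directions and MBD3 without a call. All 8 proliferation genes were higher, from log2 0.81 for PCNA, the sliding clamp, to 3.58 for MKI67 and 4.50 for TOP2A, a topoisomerase of dividing cells, with a median of 3.28.

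**Figure D5:**
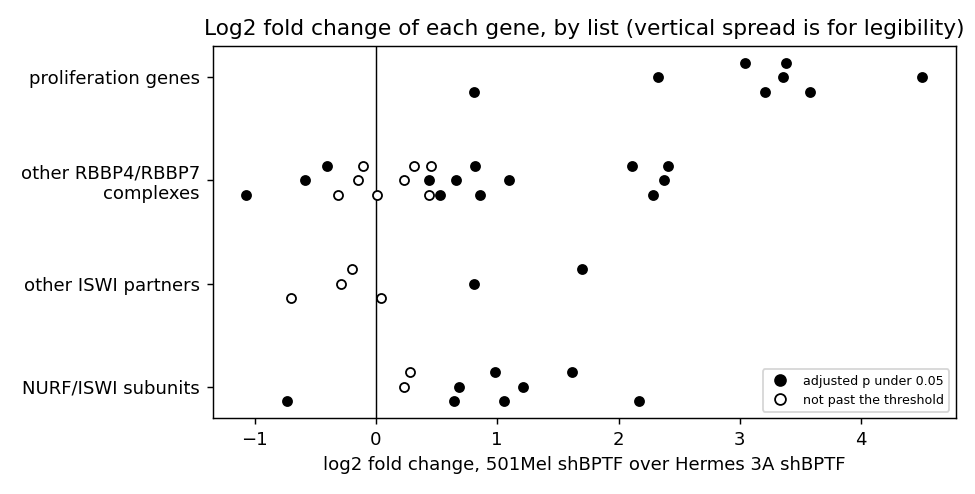
Log2 fold change of every measured gene between 501Mel shBPTF and Hermes 3A shBPTF cells (x axis), by list (rows); filled points passed an edgeR adjusted p of 0.05. PCNA lies at 0.81, and the 7 other proliferation genes lie at 2.33 or above, to the right of all NURF and ISWI subunits, which lie between -0.74 and 2.17.

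The genes whose centred log2 CPM over the 5 libraries lay nearest to that of BPTF were PMM2, PPP1CC and TTC30B, with a root mean square distance of 0.02, 0.03 and 0.03 on the log2 scale, out of 13882 genes with at least 1 CPM. For SMARCA1 they were AC010260.1, DEDD2 and ZNF619, at 0.08, 0.09 and 0.10. The names are a description.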

How the data were processed

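RNA-seq was analysed for 2 replicates of 501Mel shBPTF and 3 of Hermes 3A shBPTF, named by their titles. The authors deposited raw read counts per Ensembl gene, without normalization. The submitters' processing notes name CASAVA 1.8, TopHat 1.4.1, Bowtie 0.12.7 and hg19. The counting program, its strand setting and the annotation are not given in the sources used here. Ribosomal RNA was depleted and the libraries were treated with duplex-specific nuclease, which lowers abundant sequences. The 501Mel tables list 37259 genes and those of Hermes 3A 34033, of which 31029 are shared and were used (99.3% to 99.9% of counts). Gene models may thus differ between the lines, and cannot be told apart from the line. No pair of replicates agreed within sampling noise (chi-square per gene at least 21.5). The paper's methods give triplicate as the minimum for its shRNA experiments, whereas 501Mel has 2 libraries here. No source states that the sequenced replicates were separate cultures, so that p-values measure the spread between these libraries.

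Names and lengths are those of GENCODE 29 on GRCh38, matched for 29317 of the shared genes. Of the fixed list genes, 52 of 58 were matched. The main fit was edgeR 4.0.16 (R 4.3.3) with filterByExpr, TMM and the quasi-likelihood test, adjusted by Benjamini-Hochberg over all genes. Levels between genes are per kb of the transcript with the longest coding sequence. Ratios were tested with an exact permutation test (scipy 1.17.1). The alternatives were DESeq2 1.42.0, its size factors, library totals, 2 other filters, a replicate block, other gene lengths and leaving out each library. The fit was also run on simulated data with 200 changed genes, raised and lowered in equal number. Far fewer genes changed there than the 48.2% called here, so that the run does not test the fit in that setting. At these depths 3 counts are 0.0675 to 0.101 CPM on the TMM scale, covering counting error only. The members and lists were chosen with earlier results of these data known. All 10 members are named, and of each fixed list the called genes with the 2 largest fold changes in each direction; RSF1, BAZ2B, LUZP1, C17orf49, CHAF1B, EZH2, CHD4, MBD3, PCNA, COL1A1, COL3A1 and LUM were named after their values were seen.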

Additional observations from a re-analysis of the deposited data

How the results depend on the processing

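No log2 fold change of the 10 genes changed sign in 110 alternative values, and 15 of them lost the call of the full fit. RBBP4, RBBP7, HMGXB4 and BAZ1B were called in every fit, and BPTF and BAZ2A in none. With library totals, with at least 10 counts in every library and with the replicate block, 0 members were called lower in 501Mel, since SMARCA1 no longer passed (adjusted p = 0.0571, 0.0616 and 0.0805). Of the other RBBP4 and RBBP7 complexes, 1 gene was called lower with library totals, with a filter of 1 count and with the block. The replicate block also ended the call of BAZ1A (adjusted p = 0.0589) and called 7461 genes against 8669; same-numbered libraries correlated at 0.10 and 0.13 in their deviations, and the number was not taken as a pairing. Leaving out single libraries gave 2864 to 4595 genes called higher over all genes, 4 to 7 members higher and 0 to 1 lower, and 1 to 3 genes of the other RBBP complexes lower. Where 1 library was left in 501Mel, it was assumed to vary like the others.

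With union exon lengths the log2 SMARCA1/SMARCA5 ratio in Hermes 3A was -0.50, and the RBBP4/RBBP7 ratios were -1.53 in 501Mel and -0.89 in Hermes 3A. With median transcript lengths they were -5.77 and -4.34 for the ATPases and -0.86 and -0.22 for the RBBP pair. The order of the members then had 3 and 9 members out of place in 501Mel and 5 and 9 in Hermes 3A, and leaving out single libraries moved 2 to 4 and 0 to 2. Of 45 alternative partner shares, chosen after seeing the data, 10 moved by more than 1 SD, and the median transcript length ended the switch from BAZ1B to BAZ2A as the highest partner. The cause was not tested.
Depth did not limit the members, whose lowest count was 132. Control libraries were not analysed here.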
